A study of Rattus norvegicus with 24 samples.

Results

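The genes described here mostly encode sequence-specific transcription factors of the forkhead (Fox), Sox, T-box (Tbx), Gata, Zic, Gli, Klf, Sall, Tfap2, Ebf and Runx families and of the basic helix-loop-helix (bHLH) class. The Id proteins, counted here with the bHLH class, lack a DNA-binding region. The regions of all these genes were taken from the authors' deposited list of sperm DNA regions whose methylation differed between 2 ages. This was done by matching the gene name given for each region to these family names. Foxb1 and the Foxo genes were left out by that rule. It found 147 of the 5327 listed regions, at 89 of the 4131 genes named in the list. Of these 89 genes, 2 matched by spelling alone. Twistnb encodes a subunit of RNA polymerase I and not a Twist factor, and Runx1t1 encodes a co-repressor that lacks the Runx DNA-binding domain. Both are counted in all totals unless they are said to be left out. Of the 155 annotated protein-coding genes of these families 87 had a listed region, or 56.1%, beside 16.6% of the 20978 annotated protein-coding genes other than LOC names. Which genes had reads enough to be listed is unknown, and the part of CpG content in this share was not tested. Of the 4131 genes named in the list, 3483 matched one of the 20978 symbols, and names that did not match are not counted in the 16.6%.

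The study sequenced bisulfite-treated DNA of sperm from the cauda epididymis of 24 Wistar rats in 4 groups of 6. The groups were BDE-47 offspring at postnatal day (PND) 120, BDE-47 offspring at PND65, control offspring at PND120 and control offspring at PND65. BDE-47 (2,2',4,4'-tetrabromodiphenyl ether) is a brominated flame retardant, fed to the dams at 0.2 mg/kg body weight daily between pregnancy day 8 and PND21, and control dams received the corn oil vehicle alone. The offspring were exposed only through their mothers and each litter gave 1 male for each age, so the 2 ages of an arm can include brothers. The sperm had swum up from the tissue and passed a density gradient against somatic cells. The series deposits 1 methylation level per group and region. No spread between animals, read depth of a region or sequencing batch could be used, no test between groups was possible, and every level below is the authors' single value for 6 animals. In a pooled level, a small share of sperm that is methylated throughout and a low level in every sperm cannot be told apart.

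Forkhead, Sox, T-box, Gata, Zic, Klf and bHLH proteins bind short DNA motifs near their target genes and set cell identity in the embryo. bHLH activators pair with E proteins on E-boxes, Hes and Hey proteins repress the same kind of genes downstream of Notch, and Id proteins lack a DNA-binding region and block bHLH activators by pairing with E proteins. Gli proteins are the transcriptional effectors of Hedgehog signalling. In sperm most such developmental genes are silent, lie in CpG-rich DNA with little methylation, and in mouse and human sperm keep histones that carry both activating and Polycomb marks.

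Regulatory sequence is shown for 3 genes, because a listed region lay wholly within the 250 bases before the gene by the table's distance and RefSeq gave a promoter for that gene. The listed region of Atoh1, a proneural bHLH activator of cerebellar granule neurons and inner-ear hair cells, lay 41 to 92 bp before the gene and held 3 CpGs. That of Bhlhe41, a bHLH repressor of the circadian clock, lay 27 to 115 bp before it and held 4 CpGs. That of the forkhead gene Foxj2 lay 168 to 222 bp before it, also with 4 CpGs. The sequences are RefSeq's, on build GRCr8, while the tables use rn6, so the start of a gene may differ between them. Each runs 5' to 3' on the gene's strand and ends at the base before the RefSeq start, and capitals mark CpG dinucleotides. Atoh1 is given at chr4:95241683-95241932 on the plus strand, Bhlhe41 at chr4:180569356-180569605 on the minus strand and Foxj2 at chr4:157719009-157719258 on the plus strand.
Atoh1: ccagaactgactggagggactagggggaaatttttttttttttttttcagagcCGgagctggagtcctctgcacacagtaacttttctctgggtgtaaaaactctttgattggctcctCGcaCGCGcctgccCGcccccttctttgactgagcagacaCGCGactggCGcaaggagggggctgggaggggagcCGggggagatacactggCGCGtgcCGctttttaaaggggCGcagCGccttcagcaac
Bhlhe41: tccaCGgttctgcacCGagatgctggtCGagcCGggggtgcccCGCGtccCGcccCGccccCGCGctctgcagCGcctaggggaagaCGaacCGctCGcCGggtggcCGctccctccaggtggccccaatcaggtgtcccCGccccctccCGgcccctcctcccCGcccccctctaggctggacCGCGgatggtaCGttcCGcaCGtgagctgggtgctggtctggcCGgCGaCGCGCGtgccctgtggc
Foxj2: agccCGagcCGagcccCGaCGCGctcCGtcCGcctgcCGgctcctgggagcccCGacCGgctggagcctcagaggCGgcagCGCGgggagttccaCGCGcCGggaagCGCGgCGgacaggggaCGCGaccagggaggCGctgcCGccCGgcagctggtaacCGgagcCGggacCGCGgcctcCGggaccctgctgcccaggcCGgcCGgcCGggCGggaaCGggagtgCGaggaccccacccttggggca

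These stretches held 14 CpGs at Atoh1, 29 at Bhlhe41 and 35 at Foxj2. Counted at the offset of the listed region, the RefSeq sequence held 4, 8 and 6 CpGs, against the 3, 4 and 4 that the table gives. The reason for this gap was not tested. The Bhlhe41 region had 7.02% methylation in BDE-47 sperm at PND120 and 7.08% at PND65, against 16.2% in control sperm at PND120 and 0.499% at PND65. The Atoh1 region had 7.77% and 9.92% in BDE-47 sperm at PND120 and PND65, against 8.50% and 0.640% in control sperm at PND120 and PND65. The Foxj2 region had 11.2% and 13.1% in BDE-47 sperm at PND120 and PND65, against 15.7% and 5.21% in control sperm at PND120 and PND65. At all 3 promoters the lowest of the 4 levels was that of PND65 controls and the highest, except at Atoh1 where BDE-47 sperm at PND65 stood above it, that of PND120 controls.

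The first comparison asked how the levels differed between ages in control sperm. All 147 regions had a higher level at PND120 than at PND65, where 99.2% of all listed regions did. Over the 147 regions the control level had a median of 12.8% at PND120 (quartiles 9.23 and 15.7) and of 1.02% at PND65 (quartiles 0.546 and 5.01). The median difference was 9.26 percentage points, with quartiles of 7.66 and 11.8, beside 9.30 points over all listed regions. The list was built from differences between ages of at least 5 points, so the sign and size in controls describe the list and are no test. A gain of at least 10 points was reached by 63 regions, or 42.9%, beside 41.0% of all listed regions, a share near the background. A gain of at least 15 points was reached by 7 regions, those at Id2, Tbx3, Atoh1, Id4, Bhlhe41 and Sox3 among them, or 4.76% beside 5.76% of all listed regions. The smallest gain, 5.28 points, belonged to Twistnb, and the next smallest, 5.76 points, to Gata4.

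**Figure D1:**
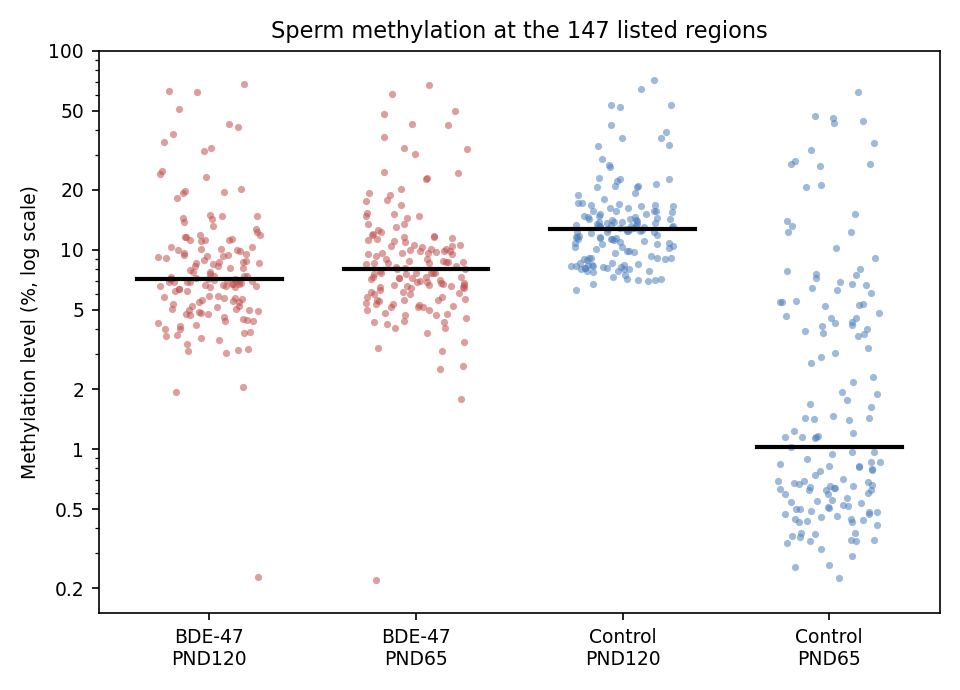
Methylation level (percent, log scale) of the 147 regions in the 4 groups, each point 1 region and each bar the median over regions. Medians were 7.12% and 8.04% in BDE-47 sperm at PND120 and PND65, against 12.8% and 1.02% in control sperm at PND120 and PND65, and the PND65 control points crowd lowest.

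Forkhead genes made up the largest family, with 42 regions at 22 of the 40 annotated rat genes of the rule. Their median control gain was 9.12 points. Foxl2, which maintains granulosa cell identity in the ovary, had 3 regions, of which the first had 8.76% and 9.51% in BDE-47 sperm at PND120 and PND65, against 15.7% and 1.43% in control sperm at PND120 and PND65. There the BDE-47 values of both ages lay within 1 point of each other and between the control values. At the third Foxl2 region the BDE-47 level at PND120 stood above both control levels, with 9.46% and 8.70% in BDE-47 sperm at PND120 and PND65, against 9.02% and 0.888% in control sperm at PND120 and PND65. Foxa2, a pioneer factor of endoderm and liver, carried 3 short regions in 1604 bp with control gains from 7.53 to 8.77 points. Foxd1, of kidney stroma, gained 13.9 points in controls within the gene and 12.5 and 10.2 points at regions 8765 and 9414 bp beyond its end. Foxa1, the paralogue of Foxa2, gained 11.4 points in controls over 10 CpGs. Foxp2, of speech and motor circuits, gained 12.4 points in its gene body and 9.02 points 1332 bp upstream, and Foxp1 gained 11.6 and 8.50 points in controls. Foxn2 stood apart by its level, with 68.3% and 67.1% in BDE-47 sperm at PND120 and PND65, against 71.2% and 61.8% in control sperm at PND120 and PND65, over 42857 bp. Sox2, Sox17 and the forkhead genes Foxa1, Foxn2, Foxp1 and Foxp2 were named after their values were seen. Foxd3, a regulator of neural crest and pluripotent cells, gained 12.9 points in controls in the region with the lowest PND65 level, 0.416%, and 6.66 points in the region with the highest, 12.2%.

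Sox genes had 16 regions at 11 of 19 annotated genes, with a median control gain of 10.4 points (6.52 to 15.2). Sox3, an X-linked SoxB1 factor of the nervous system and pituitary that mouse spermatogonia also use, had the largest. Its 3 CpGs on chrX:144036976-144037073 had 8.61% and 8.48% in BDE-47 sperm at PND120 and PND65, against 15.5% and 0.360% in control sperm at PND120 and PND65. Sox13, a SoxD factor, had 3 regions that gained 14.0, 13.1 and 9.10 points in controls. In the first of them the BDE-47 level was 9.94% at PND120 and 7.82% at PND65, one of the 5 largest BDE-47 gains among the 147 regions. Sox2, a factor of pluripotent and neural stem cells, gained 13.4 points in controls, and Sox17, of endoderm, 12.7 and 9.26 points. T-box genes had 10 regions at 6 of 13 annotated genes, with a median control gain of 10.1 points (6.74 to 20.5).

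Tbx3, which patterns limb and mammary gland, stood out among the T-box genes. Its region of 21 CpGs within 481 bp of the gene body, on chr12:42483251-42483732, had 63.1% in BDE-47 sperm at PND120 and 49.8% at PND65, against 64.1% in control sperm at PND120 and 43.6% at PND65. The age difference was 13.4 points in BDE-47 sperm and 20.5 points in control sperm. This was the only one of the 147 regions with an age difference of at least 5 points in BDE-47 sperm, 0.680% of them, where 3.55% of all listed regions had one in either direction. The other 2 Tbx3 regions, one elsewhere in the gene body and one 1241 bp beyond the gene's end, had PND65 control levels of 0.508% and 0.940% and control gains of 11.0 and 10.7 points. There the BDE-47 levels were 6.36% at PND120 and 6.59% at PND65 in the gene body, and 7.22% and 7.21% beyond it. The region of 21 CpGs was thus higher at PND120 in both arms. The 2 regions that started under 1% were higher at PND120 in controls, with BDE-47 differences of 0.00975 and -0.234 points. Tbx4, of the hindlimb, gained 10.7 points in controls, and Tbx20, of the heart, 9.56 points over a region of 71506 bp.

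The zinc-finger families followed. Sall genes, which encode zinc-finger repressors of limb and kidney development, had the highest family median among those with 6 or more regions apart from Id, 12.2 points in controls over 6 regions. Sall3 led with 6.83% and 9.52% in BDE-47 sperm at PND120 and PND65, against 14.8% and 0.461% in control sperm at PND120 and PND65, in a region of 28 bp that lay 313 bp upstream. Sall1, mutated in human Townes-Brocks syndrome, had 4 gene-body regions within 2309 bp that gained 6.72 to 12.8 points in controls. Zic genes, of cerebellum and midline, had 8 regions at 4 of 5 annotated genes and a median control gain of 9.66 points. Zic1 led, with 3.69% and 6.06% in BDE-47 sperm at PND120 and PND65, against 14.0% and 1.15% in control sperm at PND120 and PND65, and Zic4 gained 12.4 points in controls.

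Gata genes, of blood, heart and gonad, had 6 regions at 3 of 6 annotated genes, all of them in gene bodies, with a median control gain of 7.99 points. Gata4, which works in heart and in the Sertoli cells of the testis, showed how much regions of a single gene can differ. Its 16-CpG region of 4213 bp had 9.13% and 10.1% in BDE-47 sperm at PND120 and PND65, against 9.32% and 3.20% in control sperm at PND120 and PND65. A neighbouring region of 3 CpGs had 9.49% and 9.05% in BDE-47 sperm at PND120 and PND65, against 13.3% and 0.368% in control sperm at PND120 and PND65. Gata3, of T lymphocytes, gained 8.77 points in controls.

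The Gli genes gained 7.45 points at Gli1, 8.86 points at a region 51130 bp upstream of Gli2 and 7.75 points at Gli3 in controls. Gli1 started from 21.1% at PND65, over a region of 44783 bp, and Gli3 from 0.446%. Klf genes, GC-box binding factors with roles in blood, vessels and stem cells, had 11 regions at 8 of 18 annotated genes and a median control gain of 7.79 points. Klf12 gained 13.0 points in controls and a region 40002 bp from Klf7 gained 12.0 points. Klf16 had 4 regions, whose PND65 control levels ran from 0.681% to 45.7% and whose control gains ran from 6.50 to 11.8 points.

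The bHLH class, without Twistnb, had 31 regions at 20 of 34 annotated genes and a median control gain of 9.95 points. Among the inhibitors, all 4 Id genes had a region, and their 8 regions had a median control gain of 13.9 points. Id2 held the largest gain of the whole set, at 5 CpGs that lay 3361 bp upstream on chr6:44365268-44365724. The level there was 11.1% in BDE-47 sperm at PND120 and 12.3% at PND65, against 22.3% in control sperm at PND120 and 1.39% at PND65. Id4, which in mouse marks spermatogonial stem cells, had 4.41% and 5.56% in BDE-47 sperm at PND120 and PND65, against 16.5% and 0.774% in control sperm at PND120 and PND65, at 3 CpGs in 28 bp that lay 456 bp upstream. At Id1 the listed region spanned 109684 bp around the gene with 26 CpGs, started from 31.8% in PND65 controls and gained 7.33 points in controls. The largest gains of Id2 and Id4 thus lay upstream, from levels under 2% in PND65 controls. Of the other 3 Id2 regions, those 4716 and 2401 bp upstream gained 14.2 and 7.32 points in controls, and the gene-body region of 9 CpGs gained 8.18 points from 4.20% at PND65. Id3, named after its values were seen, gained 14.1 and 13.7 points in controls at 2 gene-body regions, where BDE-47 sperm had 6.53% to 7.03% at both ages.

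Among the repressors, Hes1, the main Notch target of many stem cells, gained 14.6 points in controls in its gene body and 9.68 and 9.62 points at regions 1014 and 1230 bp upstream. Hes6, which counteracts Hes1, gained 10.3 points in controls. The Hey genes, Notch effectors of vessels and heart, gained 7.92 points at Hey1, 7.44 points at Hey2 and 9.27 points at Heyl in controls. Bhlhe41 is given above, and Bhlhe22, of retina and cortex, gained 5.85 points in controls over a region of 184586 bp with 5 CpGs. Among the activators, Atoh1 had the largest control gain, 16.3 points in its gene body, with 12.8% and 14.9% in BDE-47 sperm at PND120 and PND65, against 22.6% and 6.32% in control sperm at PND120 and PND65. Atoh8 had 4 regions within 661 bp that gained 7.37 to 12.3 points in controls. Neurog3, which mouse undifferentiated spermatogonia express as well as endocrine progenitors, gained 12.3 points, Neurog2 12.2 points at 7995 bp upstream, and Neurod2 9.95 points at 6024 bp upstream in controls. Olig3 gained 11.5 points and Olig2, of oligodendrocytes, 10.2 points upstream of each gene, and Hand2, of heart and limb, 10.9 points over a region of 62109 bp in controls.

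The remaining families were small. Tfap2 genes, of neural crest, skin and germ cells, had 7 regions at 4 of 5 annotated genes and a median control gain of 8.64 points. Tfap2c, which primordial germ cells need, gained 13.2, 11.6 and 8.64 points in controls at its 3 regions. Ebf3 gained 8.88 points and Ebf2, of adipose and neural cells, 8.43 points in controls. Runx3, of T cells and sensory neurons, gained 7.98 to 10.1 points in controls at 3 regions, and Runx1t1 6.13 points. No family showed a loss, and the family medians, between 7.75 and 13.9 points for families of 3 or more regions, were spread over the middle of the range of single regions.

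**Figure D2:**
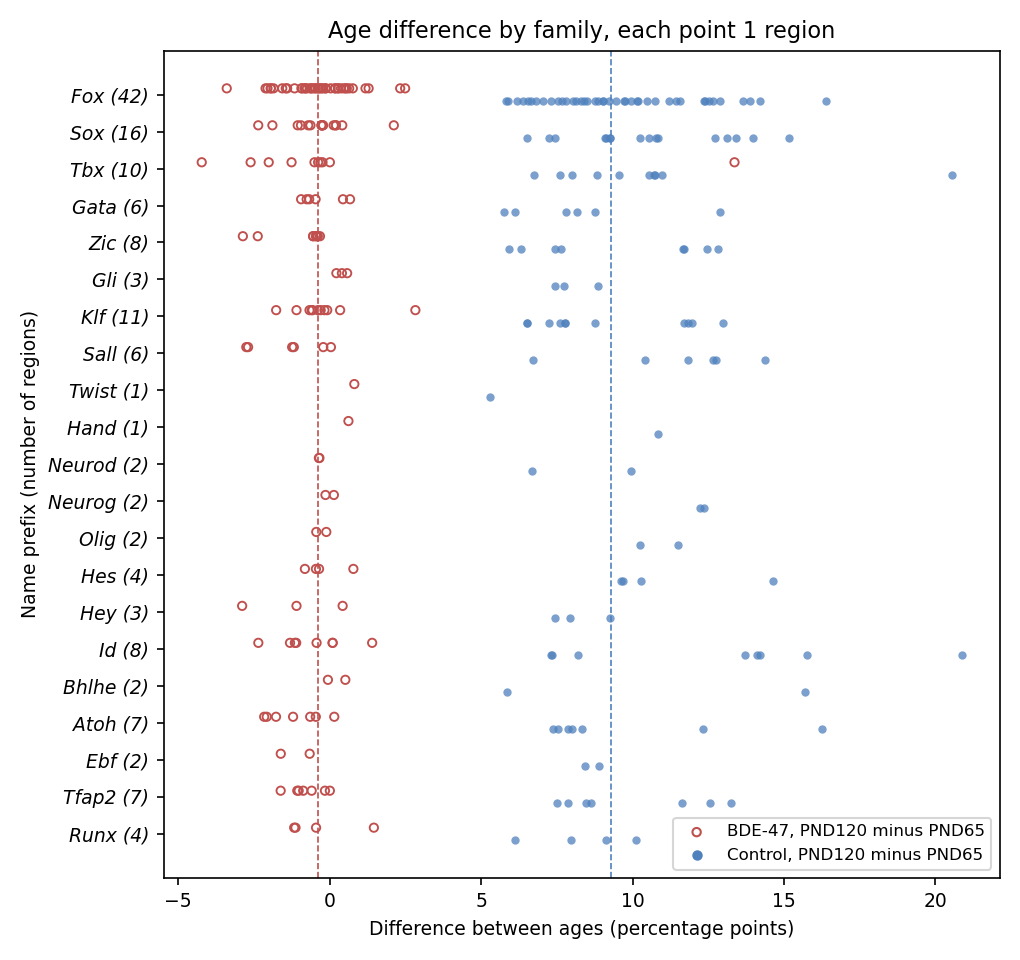
Difference between ages (PND120 minus PND65, percentage points) for each of the 147 regions by name prefix, with BDE-47 sperm as open points and control sperm as filled points. Dashed lines mark the medians over all 5327 listed regions, -0.384 points in BDE-47 sperm and 9.30 points in control sperm, and 1 open point, at Tbx3, lies beyond 5 points.

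The 147 regions lay at 89 genes, beside 5327 regions at 4131 genes in the whole list. Of the 89 genes, 51 had 1 region, 22 had 2, 12 had 3 and 4 had 4. The 4 with the most regions were Id2, Atoh8, Sall1 and Klf16. Within the 38 genes of several regions the spread between the largest and the smallest control gain had a median of 4.20 points, from 0.197 points to 13.6 points at Id2. Regions of a gene share the same animals and often neighbouring reads, so they are not independent measurements.

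**Figure D3:**
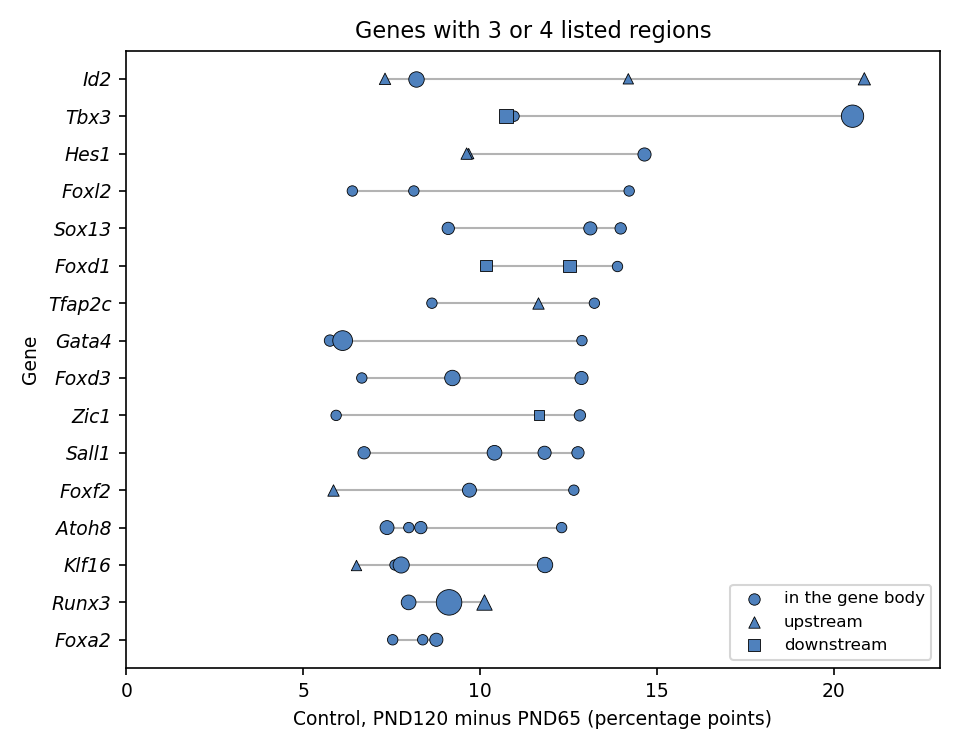
Control difference between ages (PND120 minus PND65, percentage points) for the 16 genes with 3 or 4 listed regions, each point 1 region, its size growing with the number of CpGs and its shape giving its place. Gains spread most at Id2, from 7.32 to 20.9 points, and least at Foxa2, from 7.53 to 8.77 points.

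Several of these genes lie side by side in the rat genome. Grouping regions less than 500000 bp apart gave 6 clusters of at least 2 genes, with 13 genes and 24 regions. The forkhead cluster of Foxc1, Foxf2 and Foxq1 on chromosome 17 carried 6 regions within 276 kb, with control gains of 5.84 to 12.7 points. Foxf1 and Foxc2 on chromosome 19 carried 3 regions within 35.6 kb, and Tbx5 and Tbx3 on chromosome 12 carried 5 within 433 kb. The Zic pairs were closer still: Zic1 and Zic4 on chromosome 8 had 4 regions within 27.3 kb (gains of 5.93 to 12.8 points in controls) and Zic5 and Zic2 on chromosome 15 had 4 within 25.3 kb (6.33 to 11.7 points). The last cluster, Sox12 and Id1 on chromosome 3, had 1 region at each gene within 448 kb. Genes named only as neighbours were chosen after their values were seen.

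The second comparison set BDE-47 sperm beside control sperm. Over the 147 regions the BDE-47 level had a median of 7.12% at PND120 and 8.04% at PND65, with little between the ages: the median difference was -0.440 points (quartiles -1.09 and 0.100), beside -0.384 points over all listed regions. The level was lower at PND120 than at PND65 in 105 regions, or 71.4%, beside 66.9% of all listed regions. A difference of at least 2 points in either direction was seen in 20 regions, or 13.6%, beside 13.4% of all listed regions. All 147 regions met the list's limit of 5 points in controls, where the smallest gain was 5.28 points. Only the Tbx3 region met it in BDE-47 sperm. The set of regions thus depends on the control difference, so the small age difference in BDE-47 sperm is no test of exposure. The part of this choice in it was not tested. At PND120 the BDE-47 level was below the control level in 141 regions, or 95.9% beside 90.2% of all listed regions, with a median difference of -4.17 points. It was lower by at least 5 points in 50 regions, or 34.0%, the same share as in all listed regions at 34.0%. At PND65 it was above the control level in 143 regions, or 97.3% beside 93.7%, with a median difference of 6.01 points, and by at least 5 points in 91 regions, or 61.9% beside 59.9%.

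At most of these genes the BDE-47 level sat above the PND65 control level and below the PND120 one. At PND120 it did so in 137 regions, or 93.2% beside 84.8% of all listed regions, and at PND65 in 134, or 91.2% beside 84.4%. On a scale where the PND65 control level is 0% and the PND120 control level is 100%, the median position was 54.4% at PND120 and 62.0% at PND65, beside 56.0% and 60.6% over all listed regions. The share also varied with the starting level. Among regions under 2% in PND65 controls, 97.8% of the 91 regions at these genes lay between at PND65, beside 93.7% of all 3001. Among those over 10%, 57.9% of 19 did, beside 56.2% of all 1161. The differences between BDE-47 and control sperm use the same control values as the age difference in controls. Every region at these genes also met the list's limit of 5 points in controls, so the control levels lay apart by the choice of regions. Levels of the other arm can fall between them for that reason alone. The shares and positions above, and the differences between BDE-47 and control sperm at each age, are therefore no test of exposure. The part of the shared values and of this choice in them was not tested.

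The regions that left the common pattern were few. The BDE-47 level was below both control levels at both ages in 4 regions, or 2.72% beside 4.67% of all listed regions. The farthest was Klf8, an X-linked repressor linked to invasion of tumour cells. Its 7 CpGs over 147159 bp on chrX:18878846-19026005 had 6.23% and 6.52% in BDE-47 sperm at PND120 and PND65, against 33.7% and 26.5% in control sperm at PND120 and PND65. Ebf2 had 23.9% and 24.6% in BDE-47 sperm at PND120 and PND65, against 36.4% and 28.0% in control sperm at PND120 and PND65, at 19 CpGs. Twistnb had 43.0% and 42.2% in BDE-47 sperm at PND120 and PND65, against 52.3% and 47.0% in control sperm at PND120 and PND65. Tfap2b, needed in kidney and ductus arteriosus, had a region of 3 CpGs in 565 bp on chr9:25411085-25411650 that was almost unmethylated in 3 groups, with 0.228% and 0.219% in BDE-47 sperm at PND120 and PND65, against 13.2% and 0.649% in control sperm at PND120 and PND65. At 3 further regions the BDE-47 level was less than 2 points above the PND65 control level at both ages. At Foxe1, of the thyroid, it was 6.89% and 7.70% in BDE-47 sperm at PND120 and PND65, against 16.7% and 6.72% in control sperm at PND120 and PND65. Upstream of Neurog2 it was 1.94% and 1.79% at PND120 and PND65, against 12.9% and 0.651% in control sperm at PND120 and PND65, and far from Klf7 it was 2.04% and 2.61%, against 12.8% and 0.826% in control sperm. These last regions were singled out after their values were seen.

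At another 4 regions, 2.72% beside 7.98% of all listed regions, the BDE-47 level was above both control levels at both ages. Runx3 had 61.9% and 60.4% in BDE-47 sperm at PND120 and PND65, against 53.5% and 44.3% in control sperm at PND120 and PND65, over 28 CpGs in 47272 bp. Foxf1, of lung and gut mesenchyme, had 32.7% and 30.3% in BDE-47 sperm at PND120 and PND65, against 26.7% and 20.8% in control sperm at PND120 and PND65, over 14 CpGs. The region 51390 bp from Foxi3 had 25.0% and 24.5% in BDE-47 sperm at PND120 and PND65, against 23.0% and 12.3% in control sperm at PND120 and PND65. At the longer Foxj2 region the BDE-47 level at PND120 exceeded the control level by 0.0254 points only. All these regions but Foxj2 started above 10% in PND65 controls, and Foxi3 was named after its values were seen.

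**Figure D4:**
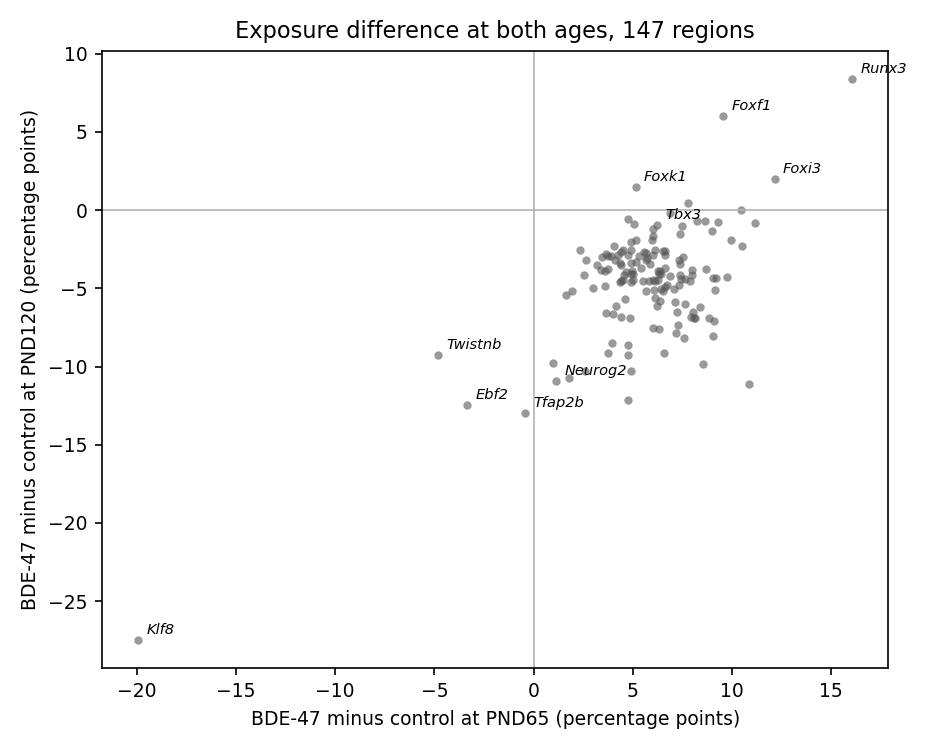
Difference between BDE-47 and control sperm at PND120 (vertical axis, percentage points) against that at PND65 (horizontal axis, percentage points), each point 1 of the 147 regions. Most points lie to the lower right, higher in BDE-47 sperm at PND65 and lower at PND120, while Klf8 lies at -27.5 points at PND120 and -19.9 points at PND65, and the long Runx3 region at 8.39 points at PND120 and 16.1 points at PND65.

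Within BDE-47 sperm, the largest gains between ages after Tbx3 were small: 2.83 points at the long Klf16 region, 2.49 points at a region 34277 bp from Foxk1, 2.33 points at Foxf1 and 2.12 points at Sox13. The Klf16, Foxk1 and Foxf1 regions had PND65 control levels of 45.7%, 27.1% and 20.8%, and Sox13 one of 0.377%. The most negative differences were -4.22 points at Tbx18, of the sinoatrial node and epicardium, -3.39 points at Foxj2, -2.89 points at Hey2, -2.86 points at the region beyond Zic1 and -2.75 points at Sall1. Tbx18 had 8.30% in BDE-47 sperm at PND120 and 12.5% at PND65, against 15.1% in control sperm at PND120 and 4.58% at PND65. With no spread between animals these differences of 2 to 4 points cannot be set against an error.

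Starting levels and lengths of the regions went together. Among the 147 regions, 91 had a PND65 control level under 2%, 61.9% beside 56.3% of all listed regions. Another 37 had one of 2 to 10%, 25.2% beside 21.9%, and 19 had one over 10%, 12.9% beside 21.8%. The median control gain was 10.1 points in the lowest class, 9.10 in the middle and 7.77 in the highest. Over all listed regions it was 9.63, 9.28 and 8.21 points in the same order. The median lengths in these classes were 120 bp, 412 bp and 33696 bp, beside 91 bp, 169 bp and 16887 bp over all listed regions. Across the 147 regions Spearman's rho between length and PND65 control level was 0.547, and across all 5327 listed regions it was 0.572. Regions are not independent, and this rho is a description. The median number of CpGs was 4 per region, beside 4 over all listed regions. Of the 147 regions, 109 were at most 1 kb long, 74.1% beside 72.6% of all listed regions. Another 12 regions were over 10 kb, 8.16% beside 17.7%. The longest were those of Tfap2b (354288 bp, 21 CpGs), Bhlhe22, Klf8, Id1 and Tbx20, and the covered CpGs of such a region can lie in other genes.

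**Figure D5:**
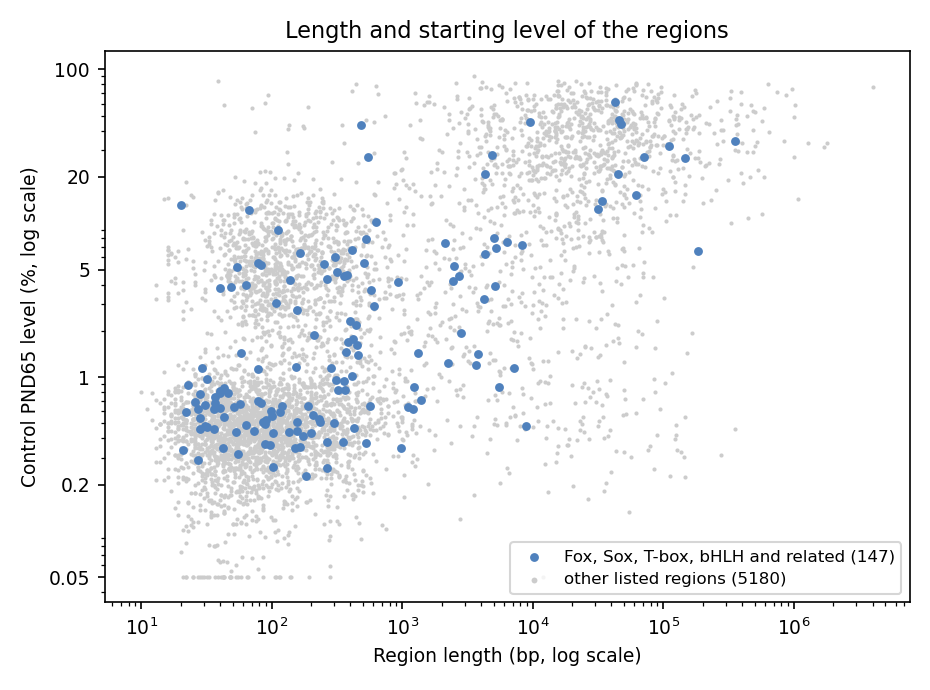
Control level at PND65 (percent, log scale) against region length (bp, log scale) for the 147 regions (blue) and the other 5180 listed regions (grey), each point 1 region, with levels under 0.05% drawn at 0.05%. Of the 147 regions, those over 10 kb lie mostly above 10%, and those of at most 1 kb mostly under 2%.

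In place, 104 of the 147 regions were in a gene body (70.7%, beside 79.7% of all listed regions), 35 upstream (23.8% beside 16.9%) and 8 downstream (5.44% beside 3.38%). Among bHLH genes 16 of 31 were in the gene body and 15 upstream, as at Id2, Hes1, Neurod2 and Olig2. Of the upstream regions, 14 of 35 lay within 1 kb of the gene, or 40%, and 5 of 15 at bHLH genes, or 33.3%, beside 597 of 901 upstream regions in the whole list, or 66.3%. Upstream and downstream follow the strand given in the table, which differed from RefSeq's for 5 of 60 genes compared. RefSeq promoter windows, which run from 250 bases before to 50 bases after the start on GRCr8, were found for 60 of the 89 genes. They held a median of 20 CpGs per 300 bases (quartiles 11.8 and 26.8), beside 23 for the 2879 windows of genes in the whole list and 7 for all 27457 windows. The GC box GGGCGG, to which Klf and Sp factors bind, was found on either strand in 66.7% of the 60 windows and in 34.9% of all windows. The E-box CANNTG, which reads the same on both strands by its fixed letters, was found in 61.7% of the 60 and 71.6% of all, and the Sox core ACAAT, on either strand, in 13.3% and 33.1%. The N-box CACNAG of Hes factors was in 28.3% and 42.8%, the forkhead core GTAAACA in 3.33% and 3.76%, the T-box core GGTGTGA in 1.67% and 3.81% and the GATA core AGATAA in 5% and 11.3%, all searched on both strands. Motif shares were not taken over the 2879 windows of genes in the whole list, so they cannot be called particular to these families. The part of CpG content in the motif shares was not tested. A match of letters is a description and not a binding site.

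Genes that act above or beside these factors were counted from lists. The counts of genes with a listed region stand beside 16.6% of the 20978 annotated protein-coding genes other than LOC names. That share has the limit of name matching given above. Of 18 Notch pathway genes above Hes and Hey, 6 had a listed region, and all 11 regions were higher at PND120 in controls, with a median gain of 8.86 points. They included 4 regions at the ligand gene Dll1 and 2 at Rbpj, the DNA-binding partner of Notch, where the upstream region gained 13.1 points in controls. Dll1 and Rbpj were named after their values were seen. Of 15 Hedgehog genes above Gli, 7 had one, with 14 regions and a median control gain of 11.2 points. Many of these regions lay at the single gene Ptch1, with control gains of 7.67 to 14.2 points, so this median leans on that gene. Ptch1 was also named after its values were seen. Of 31 symbols of bHLH partners, co-repressors and further bHLH genes, among which Aes and Tle5 name the same gene, 12 had one. These had 17 regions and a median control gain of 8.82 points. Of 13 partners of Gata and Runx factors, Runx1t1 included, 5 had one (6 regions, 9.37 points), and of 30 Polycomb group genes 16 had one (23 regions, 10.2 points). All of these regions gained in controls, as 99.2% of the whole list did, and the median over all listed regions was 9.30 points.

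The sperm label could be looked at only through regions that the list holds. Of 12 germline genes that somatic cells methylate, 2 had a listed region. Tdrd6 had 4.35% and 5.23% in BDE-47 sperm at PND120 and PND65, against 7.50% and 0.328% in control sperm at PND120 and PND65. The Zfp42 region covered 154822 bp upstream and stood between 40.8% and 48.4% in all 4 groups. Of 12 imprinted genes unmethylated in sperm, only Nnat had a listed region, 8121 bp from the gene, with 66.5% to 80.2% in the 4 groups. The part of residual somatic DNA in these levels was not tested.

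The authors' deposited table of exposure differences lists 30 regions, of which 1 has a gene of these families as its nearest. It lay 51170 bp from Tbx5, a heart and forelimb factor, on chr12:42199395-42199409 with 4 CpGs, and that authors' deposited table gives a change of -7.46 points at PND65, in a direction its header does not state. Tbx5 is described because that table lists it, and its age regions, within the gene, are others. The first had 7.96% and 10.6% in BDE-47 sperm at PND120 and PND65, against 13.0% and 4.16% in control sperm at PND120 and PND65, and the second 4.69% and 5.00% in BDE-47 sperm, against 8.21% and 0.600% in control sperm.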

How the data were processed

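Per the series' design text and the submitters' processing notes, the authors mapped reduced representation bisulfite reads to rn6 with Bismark 0.16.1 and Bowtie2 2.2.9, removed duplicates with nudup 2.2, kept CpGs with at least 10 reads, called differentially methylated regions with MethPipe and assigned genes with closest-features 2.4.25. The headers of the deposited tables state q-values under 0.05 and a minimum of 3 CpGs per region. The deposited age table gives methylation as a fraction per group and region, and its difference columns, a score in percentage points, matched 100 times the difference of the fractions within 1.42e-14 points. The deposited exposure table gives a signed change score in percentage points.

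Fractions were multiplied by 100, and differences, medians, quartiles and counts were computed with Python 3.11.15 and pandas 2.3.3, with SciPy 1.17.1 for Spearman's rho. The calculation was checked on a simulated table. A length is end minus start, and coordinates are as the table gives them. Of the columns used, 0 hold single animals, so depth per region and the spread between animals are unknown and no p-value is given. The members and gene lists were chosen with earlier results of these data known. Named genes were, per family, the gene with the most regions and the 2 with the largest control gain, any region lower at PND120 in controls (there was none), then the 5 largest gains and 5 largest falls in BDE-47 sperm and the 5 longest regions. Not all of these are reported here, and those outside the rule are marked beside their values. Annotated genes are RefSeq protein-coding symbols of GRCr8, used for names only. The alternatives were a larger change, at least 10 CpGs, regions of at most 1 kb, gene bodies only (for the gene-body share, gene bodies or within 1 kb of the gene), genes in place of regions, and leaving out both genes that match by spelling.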

Additional observations from a re-analysis of the deposited data

How the results depend on the processing

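All 147 regions gained in controls, and so did every region or gene left under each of the 6 alternatives. Each alternative keeps some of these regions or averages them by gene, so this result was fixed in advance and is no check. Of all values under an alternative, 38 stayed within 1.5 times the value reported, 4 moved further and none changed sign. The 38 include these fixed shares of gaining regions. Restricting to the 17 regions with at least 10 CpGs moved the median PND65 control level to 20.8%, the median age difference in BDE-47 sperm to -0.137 points and the median BDE-47 minus control difference at PND120 to -2.58 points. Taking genes in place of regions moved the median PND65 control level to 1.89%. The alternatives change which regions or genes are averaged, not the levels of single regions. The causes of these shifts were not tested. No paired analysis was possible because the tables hold 1 value per group and no value of single animals, and for the same reason no animal could be left out. Depth per region is unknown. Of the 147 regions, 49 rest on 3 CpGs, beside 1979 of all 5327 listed regions.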
